A study of Homo sapiens with 6 samples.

Results

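The 9 genes described here encode tubulins and cytoplasmic actins, the subunits of microtubules and actin filaments. They are the alpha tubulin genes TUBA1A, TUBA1B and TUBA1C, the beta tubulin genes TUBB, TUBB4B, TUBB2A and TUBB2B, and the actin genes ACTB and ACTG1. They were chosen by name, and every listed edit whose isoform belongs to one of them in GENCODE release 44 was taken. All 9 had an edited C, out of 7671 genes with at least 1 edited C in any library.

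The edits come from PacBio long reads of HEK293T, an established line from human embryonic kidney, whose cells were fixed with methanol on slides. In RBFOX2-INSCRIBE (2 libraries, replicates 1 and 2), a rabbit antibody bound the RNA-binding protein RBFOX2, and a purified fusion of the cytidine deaminase APOBEC1 with an anti-rabbit nanobody (Apo1-Nb) was then added, which converts Cs of nearby RNA to U. The enzyme-only control (2 libraries, replicates 2 and 3 in the sample titles) received Apo1-Nb and no RBFOX2 antibody, and the buffer-only control (2 libraries, replicates 1 and 2) received neither. The cells of all 3 groups were unmodified, went through the same overnight incubation at 37 °C, and differed only in antibody and enzyme. The libraries of a group were separate slides of the same line, so tests measure the spread between slides, which may be technical.

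Alpha and beta tubulins pair into the heterodimer from which microtubules are built, and several near-identical genes encode each partner. TUBA1A and TUBB2B are best known from the developing brain, whereas TUBA1B, TUBA1C, TUBB and TUBB4B are found in most dividing cells. ACTB and ACTG1 encode beta- and gamma-actin, the cytoplasmic actins of nearly every cell, and their mRNAs are among the most abundant ones. RBFOX2 is a splicing regulator that binds UGCAUG, mostly in nuclear pre-mRNA.

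An edited C was counted once per library and gene, on the strand of the gene and within an exon of a listed isoform. EditsC is the number of edited Cs as a percentage of all Cs in those exons. The edit fraction is the share of reads of an isoform that carried the edit at a position, as the authors deposited it. Read numbers were not part of the files, so the depth behind each fraction is unknown and no interval was computed. Over all genes, the libraries listed 200707 and 205872 edited Cs in RBFOX2-INSCRIBE, 86047 and 153783 in enzyme-only and 72753 and 71449 in buffer-only. The enzyme-only libraries thus differed more from each other than those of the other groups. No C was listed in all 4 libraries of RBFOX2-INSCRIBE and enzyme-only, because edits found across samples had been removed as putative SNPs, whereas 1378 Cs were listed in 5 of the 6 libraries. Of the kidney epithelium markers UMOD, AQP2 and SLC12A1, none had an edited C in any library, while LRP2 had one in all 6. Of the genes marking the HEK293 lineage, NEFM, NEFL and INA had edited Cs in all 6 libraries and VIM in 5, while PAX2 had none.

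The RBFOX2 motif UGCAUG was searched on the sense strand of the canonical isoforms, and 5 copies were found in 4 of the 9 genes. TUBA1A and TUBA1B held 1 copy each in the coding sequence, TUBA1C 1 in the coding sequence and 1 in the 3′ UTR, and ACTG1 1 in the 3′ UTR. The 3′ UTR copies are shown because the groups separated in this region. Capitals mark the motif (written with T), and coordinates are those of hg38, plus strand for TUBA1C and minus strand for ACTG1.
TUBA1C 3′ UTR, chr12:49273928-49273957: aaaacaaaaattTGCATGctgtgatggcac
ACTG1 3′ UTR, chr17:81510644-81510673: cgtagcatttgcTGCATGggttaattgaga
ACTB and the 4 beta tubulins held no copy in their canonical isoforms. Of 6784 canonical protein-coding isoforms with an edited C, 56.2% held at least 1 copy.

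TUBA1B had 32 Cs within 50 nt of its motif, of which 6 and 5 were edited in RBFOX2-INSCRIBE, 11 and 5 in enzyme-only, and 10 and 4 in buffer-only. The groups overlapped, and the enzyme-only and buffer-only replicates differed more within their group than the groups did from each other. ACTG1 had 28 Cs in this window, of which 8 and 7 were edited in RBFOX2-INSCRIBE, 9 and 3 in enzyme-only, and 2 and 6 in buffer-only. Both RBFOX2-INSCRIBE libraries lay above both buffer-only libraries there, but between the enzyme-only libraries. TUBA1A had 1 edited C near its motif in RBFOX2-INSCRIBE replicate 1 and 1 in enzyme-only replicate 3, and the windows of TUBA1C held 1 edited C, in the 3′ UTR in RBFOX2-INSCRIBE replicate 2. Over the 9 genes, 3.12% of all Cs lay within 50 nt of a motif. Of the edited Cs, 2.92% and 3.06% did so in RBFOX2-INSCRIBE, 5.06% and 1.90% in enzyme-only, and 3.31% and 2.78% in buffer-only. The RBFOX2-INSCRIBE values, 15 of 514 and 13 of 425 Cs, were just below the share of all Cs. ACTB and the beta tubulins, without a motif, are part of this pool. In ACTG1, 5.22% of Cs lay near the motif, against 8 of 99 and 7 of 74 edited Cs in RBFOX2-INSCRIBE. The counts were 9 of 118 and 3 of 95 in enzyme-only, and 2 of 72 and 6 of 82 in buffer-only. In TUBA1B, 7.16% of Cs lay near the motif, against 6 of 111 and 5 of 91 edited Cs in RBFOX2-INSCRIBE. Over all canonical isoforms, 2.61% of Cs lay near a motif, against 4.51% and 4.60% of the edited Cs in RBFOX2-INSCRIBE, 2.55% and 2.71% in enzyme-only and 2.59% and 2.47% in buffer-only. For these, only edits listed under the canonical isoform were counted, whereas for the 9 genes edits of any listed isoform at such Cs were.

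ACTB had the most edited Cs of the 9 genes. It listed 225 and 203 in RBFOX2-INSCRIBE, 118 and 224 in enzyme-only, and 177 and 169 in buffer-only. The buffer-only libraries lay below both RBFOX2-INSCRIBE libraries, and the enzyme-only libraries ranged from below buffer-only to just under the higher RBFOX2-INSCRIBE library. ACTG1 listed 99 and 74 in RBFOX2-INSCRIBE, 118 and 95 in enzyme-only, and 72 and 82 in buffer-only, so that RBFOX2-INSCRIBE overlapped with both controls. Of the 118, 19 stood opposite a T of ACTB and are described further on. Together, 375 of the 641 Cs of ACTB (58.5%) and 319 of the 562 Cs of ACTG1 (56.8%) were edited in at least 1 library.

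Among the alpha tubulins, TUBA1B stood out from its near copies. It listed 111 and 91 edited Cs in RBFOX2-INSCRIBE, 106 and 87 in enzyme-only, and 77 and 71 in buffer-only. Both groups that received Apo1-Nb lay above buffer-only, and they overlapped with each other. TUBA1A listed 11 and 13 in RBFOX2-INSCRIBE, 3 and 15 in enzyme-only, and 9 and 4 in buffer-only. TUBA1C listed 9 and 5, then 5 and 6, then 0 and 5 in the same order. These counts are small, and only TUBA1A in RBFOX2-INSCRIBE against buffer-only did not overlap.

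The beta tubulins were edited at few Cs. TUBB listed 22 and 13 in RBFOX2-INSCRIBE, 6 and 10 in enzyme-only, and 2 and 11 in buffer-only, and RBFOX2-INSCRIBE lay above both controls. TUBB2B listed 12 and 13, then 7 and 7, then 8 and 4, with RBFOX2-INSCRIBE again above both controls. TUBB2A listed 9 and 6, then 6 and 8, then 2 and 1, and only buffer-only stood apart, below the other groups. TUBB4B went the other way, with 16 and 7 in RBFOX2-INSCRIBE, 28 and 22 in enzyme-only, and 16 and 14 in buffer-only. For TUBB4B both enzyme-only libraries lay above all others.

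**Figure D1:**
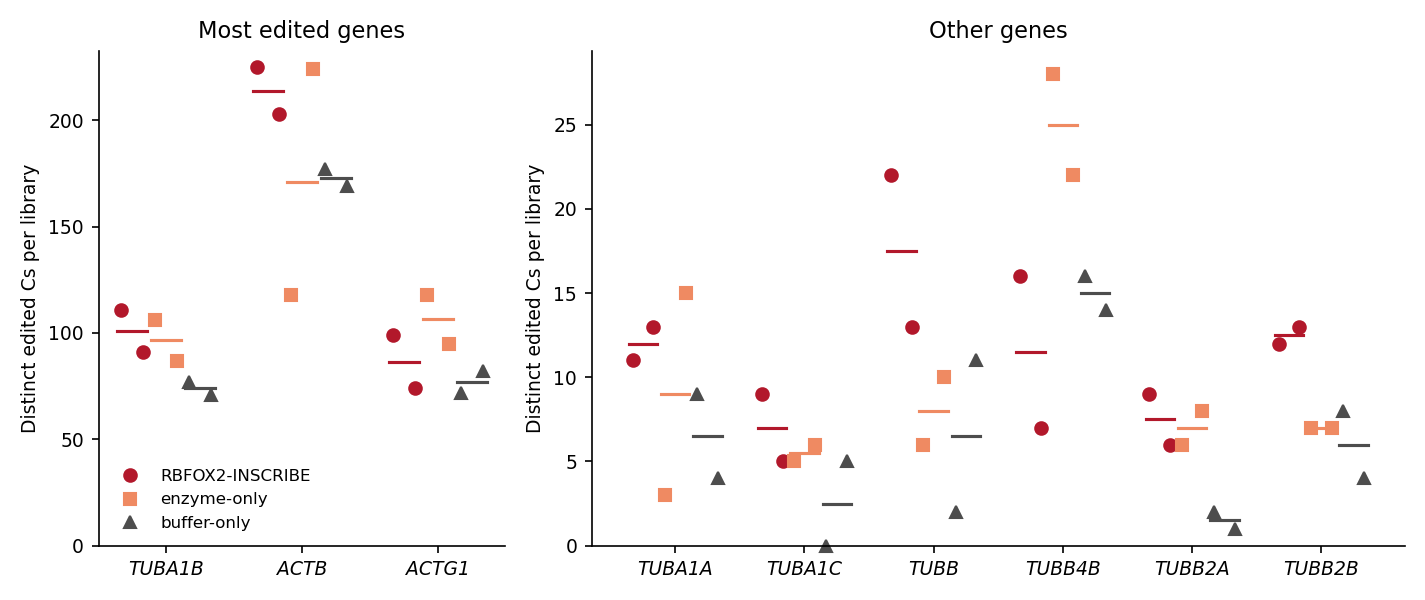
Distinct edited Cs of each gene (vertical axis, counts from 0), with 1 point per library and a bar at the mean of the 2 libraries of a group; the left and right panels have different scales. ACTB lay between 118 and 225, and for TUBB4B both enzyme-only libraries (28 and 22) lay above the other 4.

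Per C of the isoform that carried most edits, the order of the genes was ACTB, TUBA1B, ACTG1, TUBB4B and then the other 5. ACTB had editsC between 21.6% and 41.5% over the 6 libraries, TUBA1B between 15.7% and 24.8%, and ACTG1 between 13.3% and 21.9%. TUBA1B and ACTG1 overlapped in their ranges, and in enzyme-only replicate 2 the 3 genes lay between 21.6% and 23.3%. TUBB4B ranged from 1.49% to 5.96%. TUBA1A (0.693% to 3.46%), TUBB (0.286% to 3.14%), TUBB2B (0.763% to 2.48%), TUBB2A (0.203% to 1.83%) and TUBA1C (up to 1.24%) overlapped with one another, and all of them but TUBA1C overlapped with TUBB4B. When the Cs of all listed isoforms are counted, TUBA1B lay between 8.32% and 13.0%, because a retained intron isoform with 853 Cs and only 3 listed edits enters the total.

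The edit fractions ran in the opposite order. The lowest listed fraction was 0.0145% to 0.0268% for the main ACTB isoform, 0.0477% to 0.0901% for that of ACTG1 and 0.0486% to 0.0812% for that of TUBA1B. It was 0.287% to 0.483% for TUBB4B and between 0.617% and 3.23% for the other 5 genes, so the genes with the most edited Cs had the lowest fractions. Within ACTB, the lowest fraction was highest in enzyme-only replicate 2 (0.0268%), the library with the fewest edited Cs of this gene, and lowest in RBFOX2-INSCRIBE replicate 1 (0.0145%), the library with the most. A fraction cannot be lower than 1 edited read over all reads of the isoform, and the part of read depth in the counts was not tested.

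Summed over the positions of the main isoform, the fractions of RBFOX2-INSCRIBE lay above those of buffer-only in the 3 most edited genes, and overlapped with enzyme-only in both actins. Among the other genes, TUBB2A also lay above buffer-only (13.9% and 13.6% against 6.45% and 2.13%). TUBB4B went the other way, with 5.39% and 3.38% in RBFOX2-INSCRIBE below 6.22% and 6.78% in buffer-only. TUBA1A, TUBA1C, TUBB and TUBB2B overlapped. Such sums were not made outside the 9 genes, so how common either order is over all genes is unknown. By the number of edited Cs, both RBFOX2-INSCRIBE libraries lay above both buffer-only libraries in 80.6% of all genes tested. For ACTB the sum was 5.77% and 5.74% in RBFOX2-INSCRIBE, 4.13% and 5.93% in enzyme-only, and 4.62% and 4.80% in buffer-only. For TUBA1B it was 8.53% and 9.59%, 7.89% and 7.73%, and 6.82% and 6.61% in the same order, and the 3 groups did not overlap. For ACTG1 it was 8.81% and 9.65%, 12.2% and 8.55%, and 7.63% and 6.80%. The highest value, that of enzyme-only replicate 2, rested on 19 Cs opposite a T of ACTB that are described further on. Without all such Cs, the sum for ACTG1 was 8.46% and 9.29% in RBFOX2-INSCRIBE, 7.77% and 8.31% in enzyme-only, and 7.19% and 6.73% in buffer-only. The 3 groups then did not overlap. Because these Cs were chosen after their values were seen, and leaving them out lowered enzyme-only replicate 2 most, this order is a description only. In TUBA1C, 3 Cs of the 3′ UTR had a fraction of 100% in RBFOX2-INSCRIBE replicate 2 and were listed in no other library. The other fractions of this gene lay between 1.04% and 2.22%.

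Nearly all edits of a gene were listed under 1 isoform. For 6 of the 9 genes it was the only listed isoform, and 12 isoforms were listed in all. ACTG1 was the exception to the canonical isoform carrying the edits. Its isoform ENST00000576544, annotated as a target of nonsense-mediated decay, had 95 and 73 edited Cs in RBFOX2-INSCRIBE, 117 and 90 in enzyme-only, and 71 and 77 in buffer-only. The canonical ENST00000573283 had 9 and 3, 1 and 5, and 1 and 8 in the same order. The median fraction was 0.0640% to 0.108% under the former and 1.47% to 4.55% under the latter.

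The first comparison asks what the RBFOX2 antibody added over Apo1-Nb alone. None of the 9 genes passed the test in RBFOX2-INSCRIBE against enzyme-only (limma on log2 of edited Cs plus 0.5 per C, Benjamini-Hochberg adjustment over all genes that averaged 5 or more edited Cs, threshold 0.05). Over all 5088 genes tested, 6 passed, or 0.118%, so a count of 0 among 9 genes is near the background. At an unadjusted p under 0.05 none of the 9 passed either, against 864 of all genes. The largest differences were those of TUBB4B, lower by 1.19 ± 0.68 (log2 difference -1.19, SE 0.68, adjusted p = 0.329), and TUBB, with a log2 difference of 1.08 (SE 0.74, adjusted p = 0.395). ACTB had a log2 difference of 0.39 (SE 0.55) and ACTG1 of -0.31 (SE 0.58). The median over the 9 genes was a log2 difference of 0.27, against 0.85 over all genes, and 8 of the 9 lay below the latter. Both libraries of RBFOX2-INSCRIBE lay above both of enzyme-only for 2 of the 9 genes (TUBB and TUBB2B), against 51.8% of all genes tested, and below for 1 (TUBB4B), against 3.56%. The direction depended on scaling: with the edited Cs of each library scaled to the same total, the median of all genes moved to 0.05 and that of the 9 genes to -0.49, with ACTB (-0.43), TUBA1B (-0.75), TUBB2A (-0.69) and TUBA1C (-0.49) turning from above to below 0.

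The number of genes that passed moved with single libraries. With 1 library of a group left out, the remaining one is assumed to vary like those of the other group, which alone give the spread. Without enzyme-only replicate 3, ACTB passed with a log2 difference of 0.85 (limma, adjusted p = 0.0301), and 1659 of 5115 genes passed in all. Without enzyme-only replicate 2, ACTB had a log2 difference of -0.07 and no gene passed, and without RBFOX2-INSCRIBE replicate 1 or 2 only 1 gene of the transcriptome passed, which was none of the 9. At the level of isoforms, 9 isoforms of the 9 genes were tested and none passed with limma, at an adjusted p between 0.343 and 0.950 and with none at an unadjusted p under 0.05. Over all 5718 isoforms tested, 3 passed, or 0.0525%.

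The second comparison asks what antibody and enzyme together added over incubated cells with neither. It shares its RBFOX2-INSCRIBE libraries with the first. Of the 9 genes, 7 reached the minimum and none passed in either direction, whereas 61.1% of 4804 genes passed as higher in RBFOX2-INSCRIBE and 0.0624% as lower (limma). At an unadjusted p under 0.05, 2 of the 7 passed (ACTB and TUBB2B), against 3201 of all genes. ACTB came closest to the threshold after adjustment, with a log2 difference of 0.30 (SE 0.12, adjusted p = 0.0529), followed by TUBB2B with 1.07 (SE 0.45, adjusted p = 0.0741). TUBB had the largest log2 difference, 1.70 (SE 0.74, adjusted p = 0.08). For TUBA1B it was 0.44 (SE 0.19, adjusted p = 0.0804), for TUBA1A 0.93 (SE 0.46), for ACTG1 0.15 (SE 0.19) and for TUBB4B -0.48 (SE 0.44).

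The differences of these genes were small beside those of the transcriptome. Cs listed in all 4 libraries of RBFOX2-INSCRIBE and enzyme-only had been removed. The most edited genes lack such Cs to an unknown extent, and the part of this removal in the differences was not tested. The median over the 7 genes was a log2 difference of 0.44, against 1.54 over all genes, and 6 of the 7 lay below the latter, TUBB being the exception. Both RBFOX2-INSCRIBE libraries lay above both buffer-only libraries for 5 of the 7 genes, against 80.6% of all genes tested, and for none were both below, against 0.958%. TUBA1C and TUBB2A had too few edited Cs to be tested, and TUBB2A did not overlap (9 and 6 against 2 and 1). The direction depended on scaling: with the edited Cs of each library scaled to the same total, which moved the median of all genes from 1.54 to 0.10, the median over the 7 genes was -1.05 and 6 of the 7 were below 0. ACTB then passed as lower in RBFOX2-INSCRIBE, with a log2 difference of -1.19 (limma, adjusted p = 0.0368), as did 0.229% of all genes. Without either RBFOX2-INSCRIBE library no gene passed, and without buffer-only replicate 1 or 2 the number was 2208 or 2311, against 2940 with all libraries. TUBB2A passed without buffer-only replicate 1 (log2 difference 2.39) and TUBB without buffer-only replicate 2 (2.8), each against a single buffer-only library with 1 edited C of TUBB2A or 2 of TUBB and with the spread of RBFOX2-INSCRIBE alone.

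The third comparison asks what Apo1-Nb alone added over buffer. It shares libraries with both others. None of the 7 genes tested passed with limma, also at an unadjusted p under 0.05, against 0.546% of 4211 genes that passed as higher in enzyme-only. TUBB4B had a log2 difference of 0.71 (SE 0.62), TUBB of 0.62 (SE 0.76), ACTG1 of 0.46 (SE 0.53) and TUBA1B of 0.38 (SE 0.56), while ACTB had -0.09 (SE 0.51). The median over the 7 genes was 0.38, against 0.69 over all genes, and became -0.29 after scaling to the same total. Both enzyme-only libraries lay above both buffer-only libraries for 3 of the 7 genes (TUBA1B, TUBB4B and ACTG1), against 44.4% of all genes, and for none were both below, against 1.31%. Without any 1 of the 4 libraries, 0 or 1 of all genes passed, against 23 with all of them.

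**Figure D2:**
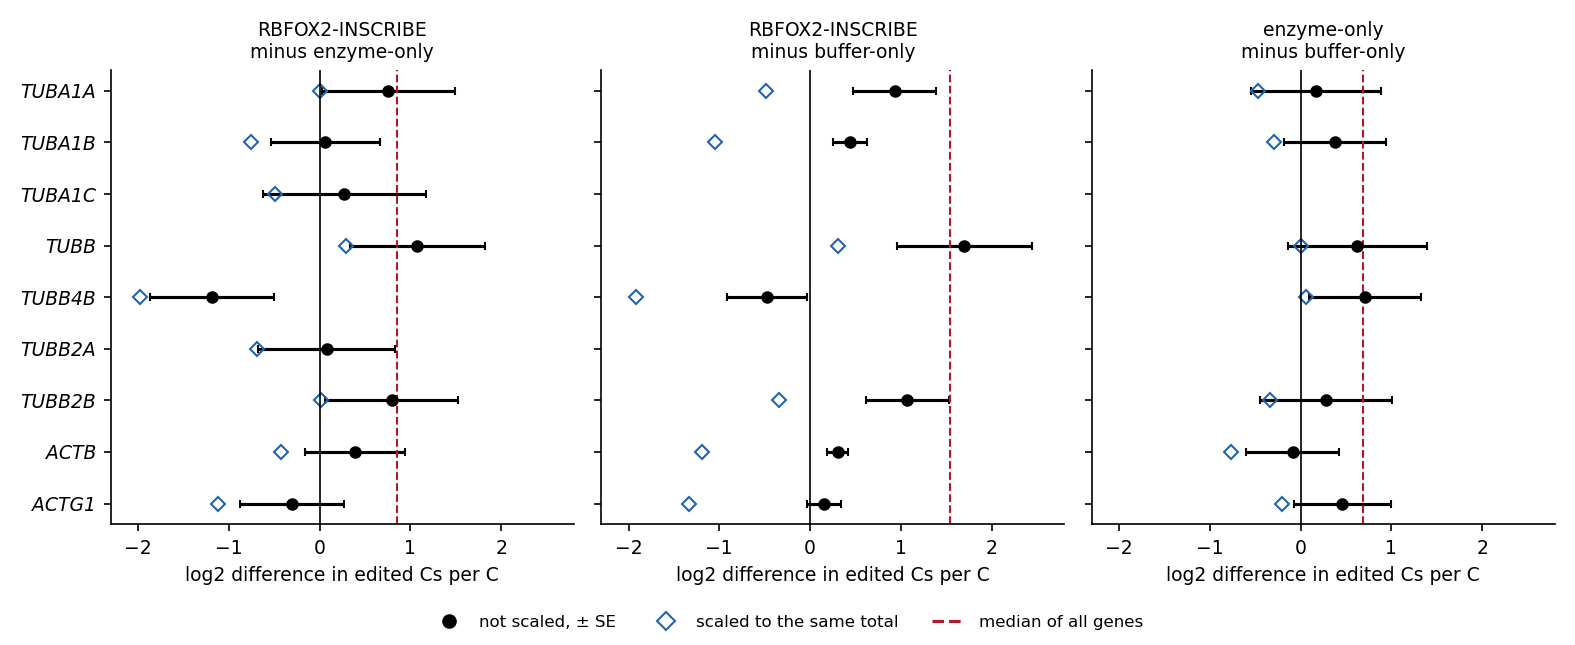
Log2 difference in edited Cs per C between 2 groups (horizontal axis) for each gene that reached a mean of 5 edited Cs, with filled points for unscaled counts (bars are the SE of the limma fit), open diamonds for counts scaled to the same total, and a dashed line at the median of all genes. In RBFOX2-INSCRIBE minus buffer-only, 6 of 7 filled points lie left of the dashed line at 1.54, and 6 of 7 diamonds lie below 0.

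As a share of all edited Cs, the 9 genes made up 0.256% and 0.206% in RBFOX2-INSCRIBE, 0.461% and 0.308% in enzyme-only, and 0.499% and 0.505% in buffer-only. The groups did not overlap, and the share was lowest where the antibody was present. Cs removed because all 4 libraries with Apo1-Nb listed them are missing from these shares. The pooled editsC of the 9 genes went from 6.72% and 6.69% in buffer-only to 9.52% and 7.87% in RBFOX2-INSCRIBE. That of all genes went from 0.986% and 0.968% to 2.72% and 2.79%. With 2 libraries per group, an exact permutation test cannot give a two-sided p below 0.33, which limits this and the following statements on regions and sequence context.

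Within the 9 genes, all 3 groups separated in the 3′ UTR, while in the coding sequence only buffer-only stood apart, by a small margin. In the 3′ UTRs of the canonical isoforms, 101 and 108 of 1072 Cs were edited in RBFOX2-INSCRIBE (9.42% and 10.1%), 71 and 92 in enzyme-only (6.62% and 8.58%), and 52 and 57 in buffer-only (4.85% and 5.32%). The 3 groups did not overlap. In the coding sequence, 378 and 296 of 3452 Cs were edited in RBFOX2-INSCRIBE, 299 and 357 in enzyme-only, and 283 and 276 in buffer-only, so that both groups with Apo1-Nb lay above buffer-only and enzyme-only lay within the range of RBFOX2-INSCRIBE. In the 5′ UTR, with 35 and 21, 25 and 25, and 28 and 27 of 345 Cs, both controls lay within the range of RBFOX2-INSCRIBE. The mean of RBFOX2-INSCRIBE was 1.92 times that of buffer-only in the 3′ UTR, 1.21 times in the coding sequence and 1.02 times in the 5′ UTR. Over the canonical isoforms of all genes these ratios were 3.89, 2.05 and 1.40. In the 3′ UTR of all genes the 3 groups separated too (3.52% and 3.67%, 1.27% and 2.45%, 0.938% and 0.911%). In their coding sequence they also did (2.24% and 2.23%, 1.19% and 1.94%, 1.10% and 1.08%). For all genes, only edits listed under the canonical isoform were counted. For the 9 genes, edits of any listed isoform at the same Cs were, so these values are not like for like.

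The genes differed in their 3′ UTRs. ACTG1 had 32 and 26 edited Cs of 136 in RBFOX2-INSCRIBE, 31 and 28 in enzyme-only, and 10 and 17 in buffer-only. Both groups with Apo1-Nb lay above buffer-only there, whereas in the coding sequence its 62 and 44, 82 and 64, and 58 and 64 edited Cs overlapped. Without the Cs opposite a T of ACTB, described further on, the coding counts were 57 and 41, 63 and 61, and 54 and 63. RBFOX2-INSCRIBE then lay below enzyme-only and overlapped with buffer-only, but these Cs were chosen after their values were seen. In the 3′ UTR of ACTB the counts were 39 and 41, 21 and 39, and 26 and 29 of 125 Cs, so that RBFOX2-INSCRIBE lay above buffer-only and reached the higher enzyme-only library. In that of TUBA1B they were 16 and 16, 12 and 8, and 10 and 7 of 39 Cs, and RBFOX2-INSCRIBE lay above both controls. TUBB2B had 10 of its 13 edited Cs in the 3′ UTR in RBFOX2-INSCRIBE replicate 2, against 1 of 12 in replicate 1 and 1 to 3 in the controls. TUBB4B had 1 and 0 edited Cs there in RBFOX2-INSCRIBE, below the 5 and 3 of enzyme-only, and 3 and 1 in buffer-only. TUBA1A had 2 and 5, 0 and 8, and 0 and 0, with its highest count in enzyme-only replicate 3.

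**Figure D3:**
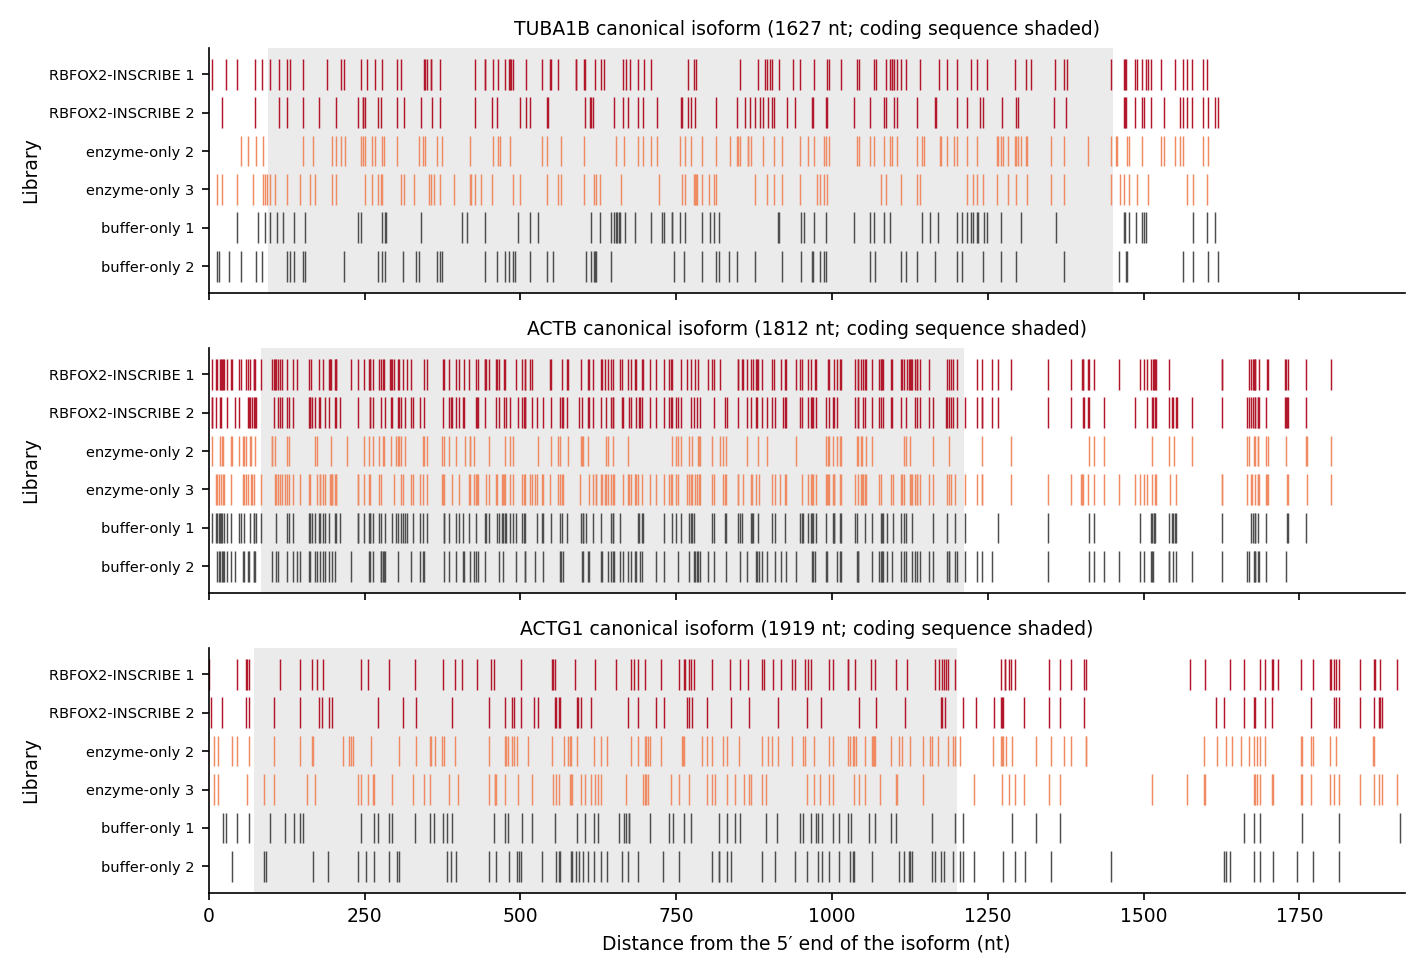
Each tick is an edited C at its distance from the 5′ end of the canonical isoform (horizontal axis, nt), with 1 row per library and the coding sequence shaded, for the 3 most edited genes. In the 3′ UTR of ACTG1, the 10 and 17 ticks of the buffer-only libraries compare with 26 to 32 in the other 4.

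APOBEC1 is known to prefer a C that follows an A or a U. Of the edited Cs of the 9 genes, 21.6% and 23.1% followed an A in RBFOX2-INSCRIBE, near the 21.3% of all their Cs that do so. Over all canonical isoforms, 40.2% and 41.0% of the edited Cs followed an A in RBFOX2-INSCRIBE, against 22.3% of all Cs. As for the regions, edits listed under other isoforms entered the counts of the 9 genes but not those of all genes. Split by context, Cs after A or U were edited at 10.8% and 9.70% in RBFOX2-INSCRIBE, 7.88% and 10.1% in enzyme-only, and 6.0% and 6.29% in buffer-only. Cs after C or G were edited at 10.4% and 8.01%, 8.30% and 9.48%, and 8.55% and 8.23% in the same order. Both groups with Apo1-Nb thus lay above buffer-only after A or U, and all groups overlapped after C or G. The mean of RBFOX2-INSCRIBE over that of buffer-only was 1.66 after A or U and 1.10 after C or G, against 5.0 and 1.27 over all genes.

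The context and the region went together. In the 3′ UTR, 51 and 58 of 536 Cs after A or U were edited in RBFOX2-INSCRIBE, 35 and 40 in enzyme-only, and 17 and 23 in buffer-only, and the 3 groups did not overlap. The ratio of RBFOX2-INSCRIBE to buffer-only was 2.73 for these Cs and 1.45 for the 536 Cs of the 3′ UTR after C or G. In the coding sequence it was 1.47 after A or U and 1.06 after C or G. In the coding sequence of the alpha tubulins, 51 and 42 of 451 Cs after A or U were edited in RBFOX2-INSCRIBE. The counts were 48 and 40 in enzyme-only, and 25 and 24 in buffer-only. After C or G, they were 54 and 41, 47 and 45, and 47 and 41 of 658 Cs in the same order. TUBA1B alone held 43 and 35, 43 and 35, and 24 and 22 of those after A or U. The beta tubulins had 17 and 8, 15 and 18, and 7 and 4 edited coding Cs after A or U. The actins had 93 and 86, 59 and 104, and 69 and 73, so that enzyme-only overlapped with both other groups.

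**Figure D4:**
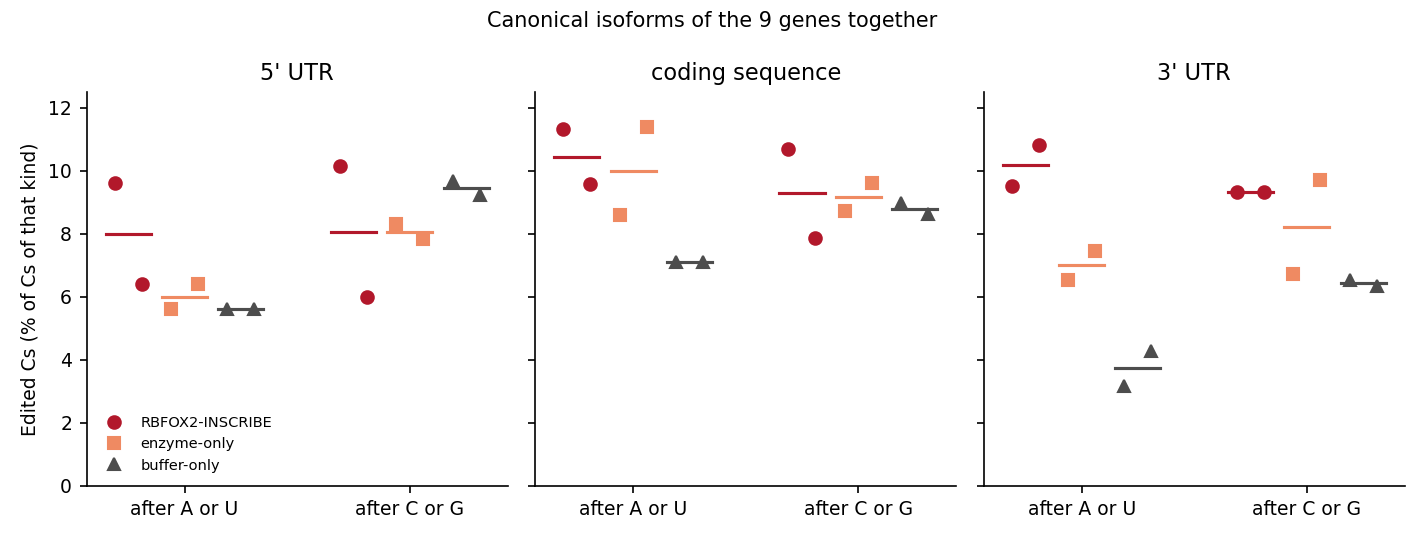
EditsC of the 9 genes together (vertical axis, percent of Cs of that kind, from 0) by region of the canonical isoform and by the base before the C, with 1 point per library and a bar at the group mean. After A or U in the 3′ UTR, RBFOX2-INSCRIBE lay at 9.52% and 10.8% and buffer-only at 3.17% and 4.29%.

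A split by context was also seen among Cs with a fraction above the lowest one of the library. Depth along the isoform is unknown, so this set can hold Cs at less covered positions. For TUBA1B in enzyme-only replicate 2, listed fractions included 0.0486% at position 49128058 of the coding sequence and 0.112% at position 49131309 of the 5′ UTR. The part of depth in this set was not tested. In TUBA1B, Cs with a fraction of at least 1.5 times the lowest one of the library numbered 25 and 15 in RBFOX2-INSCRIBE, of which 17 and 11 followed A or U. In buffer-only they numbered 12 and 17, of which 5 and 4 did. In enzyme-only they numbered 46 and 21, of which 21 and 11 did. Of these Cs, 8 and 3 lay in the 3′ UTR in RBFOX2-INSCRIBE, 6 and 2 in enzyme-only and none in buffer-only. For the main isoform of ACTG1, 16 of 28 and 14 of 24 such Cs followed A or U in RBFOX2-INSCRIBE, 24 of 57 and 8 of 19 in enzyme-only, and 8 of 26 and 5 of 17 in buffer-only. The 57 Cs of enzyme-only replicate 2 included Cs opposite a T of ACTB, described further on, and 41 remained without them. These 41 were not split by context.

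Recurrence differed between the genes. Of 5400 Cs in the exons of the 9 genes, 1312 (24.3%) were edited in at least 1 library, and of these 643 were listed in 1 library, 315 in 2, 193 in 3, 123 in 4 and 38 in 5. ACTB held 100 of the 123 and 33 of the 38. In at least 2 libraries were listed 51.0% of the edited Cs of the 9 genes, against 22.6% of all listed sites of the series. The share was 88.8% for ACTB, 53.3% for TUBA1B and 47.3% for ACTG1, and between 3.23% and 10% for the other 6 genes. Because Cs found in all 4 libraries of RBFOX2-INSCRIBE and enzyme-only had been removed, the counts of the most edited genes lack such Cs to an unknown extent.

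Cs listed in both libraries of a group numbered 172 in RBFOX2-INSCRIBE, 114 in enzyme-only and 112 in buffer-only. Those listed in none of the other 4 libraries numbered 22, 27 and 13 in the same order. They were found in TUBA1B (10, 9 and 6), ACTB (5, 8 and 2), ACTG1 (4, 10 and 5) and TUBA1A (3, 0 and 0). Among those of ACTG1 in enzyme-only, positions 81511360 and 81511483 stand opposite a T of ACTB. Of all Cs selected in this way, 17 of 22 followed A or U in RBFOX2-INSCRIBE and 17 of 27 in enzyme-only, against 2 of 13 in buffer-only. In the 3′ UTR lay 8 of 22, 3 of 27 and none of 13. Since these Cs were selected by where they were listed, the counts are a description. The same counts over all genes were not made, so how common such Cs are is unknown. In TUBA1B, the C with the highest mean fraction among those listed in at least 2 libraries was one of them. It is shown with the edited C in capitals, on the minus strand of hg38.
TUBA1B 3′ UTR, chr12:49127817-49127845: cttttccatgtgtaCctgtaatatttttc
This C followed an A, and its fraction was 0.162% and 0.406% in the RBFOX2-INSCRIBE libraries.

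In 7 of the other genes, the C chosen in the same way was listed in more than 1 group. In TUBB it lay in the 5′ UTR (chromosome 6, position 30720428) and was listed in RBFOX2-INSCRIBE replicate 1 (1.03%) and in both buffer-only libraries (1.45% and 1.59%). In TUBB2A (chromosome 6, position 3154375) and TUBA1C (chromosome 12, position 49273265) it was listed in 1 RBFOX2-INSCRIBE and 1 enzyme-only library, at a mean of 2.33% and 1.33%. In TUBB2B (chromosome 6, position 3224618) it was listed in RBFOX2-INSCRIBE replicate 2 (3.08%) and buffer-only replicate 1 (1.41%), and in TUBB4B (chromosome 9, position 137242910) in enzyme-only replicate 3 and buffer-only replicate 1 (0.372% and 0.714%). In ACTB (chromosome 7, position 5528423) and ACTG1 (chromosome 17, position 81510539) it was listed in enzyme-only replicate 2 at 3.13% and 4.55% and in 1 buffer-only library at 0.0201% and 0.0631%. These last high values came from isoforms with few edits, ENST00000642480 and ENST00000573283.

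The genes are close copies, so reads of one may be taken for another. The coding sequences of TUBA1A and TUBA1B were identical at 97.2% of aligned bases, those of TUBB2A and TUBB2B at 98.1%, those of ACTB and ACTG1 at 91.2% and those of TUBB and TUBB4B at 84.6%. At 350 aligned places all 3 alpha tubulins have a C, and an edit was listed at 216 of them in 1 gene, at 35 in 2 and at 2 in all 3. For the 4 beta tubulins, 108 of 297 such places were edited in 1 gene and 17 in 2. For the 2 actins, 149 of 336 were edited in 1 gene and 156 in both.

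A C that stands opposite a T of a close copy would read as edited if the copy's sequence were assigned to the gene. ACTG1 has 23 such Cs opposite ACTB. In enzyme-only replicate 2, 19 of the 23 (82.6%) were listed, against 5 and 3 in RBFOX2-INSCRIBE, 3 in enzyme-only replicate 3, and 4 and 1 in buffer-only. At the 336 places where both actins have a C, ACTG1 was listed at 18.2% in enzyme-only replicate 2, within the 11.3% to 18.5% of the other 5 libraries. The 19 Cs had a median fraction of 0.25%, against 0.0601% at the shared Cs in the same library. A stretch with 3 of them is shown, with the bases that differ between the genes in capitals, on the minus strand of hg38.
ACTG1, chr17:81512107-81512136: atggtgggcatgggCcagaaggaCtcctaC
ACTB, chr7:5529365-5529394: atggtgggcatgggTcagaaggaTtcctaT
All 3 Cs were listed in enzyme-only replicate 2, at fractions between 0.255% and 0.259%. In the other direction, ACTB was listed at 5 of its 23 Cs opposite a T of ACTG1 in enzyme-only replicate 2 (21.7%), against 22.3% of the shared Cs. The alpha tubulins had 45 Cs opposite a T of another alpha tubulin, of which 2 to 6 were listed per library, and the beta tubulins had 244, of which 2 to 8 were listed. Whether reads of ACTB were counted as ACTG1 was not tested, because the reads were not used here.

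**Figure D5:**
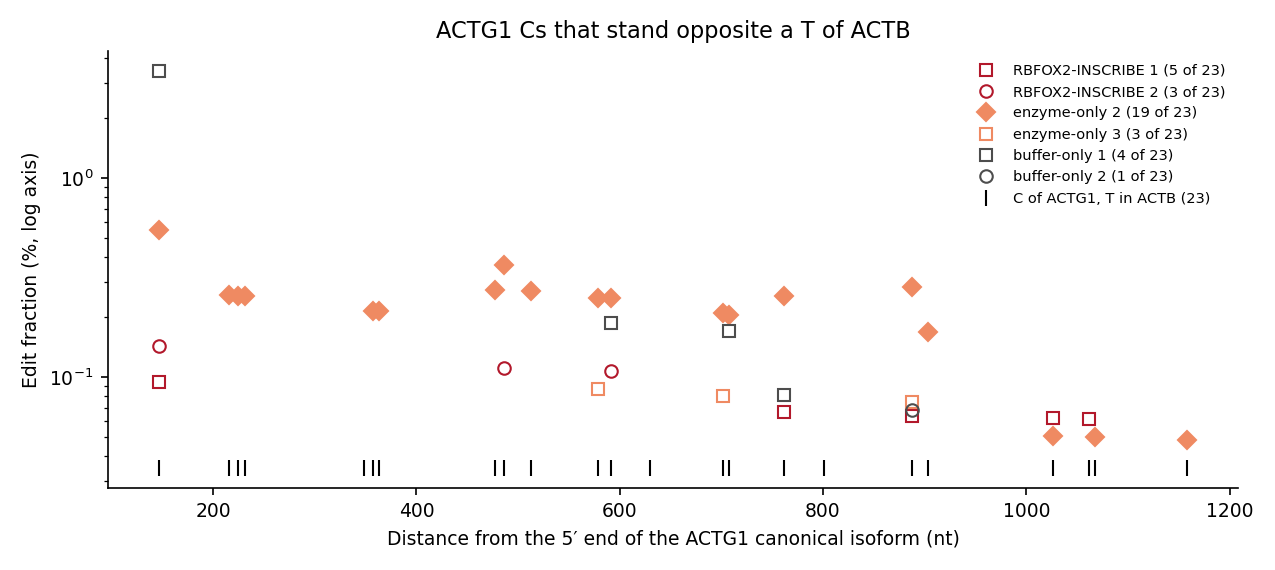
Edit fraction (vertical axis, percent, log scale) of the 23 Cs of ACTG1 that stand opposite a T of ACTB, by distance from the 5′ end of the canonical isoform (horizontal axis, nt); black ticks mark all 23. Enzyme-only replicate 2 (filled diamonds) was listed at 19 of them, the other 5 libraries at 1 to 5.

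Some edits of these genes were listed on the opposite strand, where they read as G-to-A on the gene. TUBA1B had 67 and 56 such sites in RBFOX2-INSCRIBE, 76 and 58 in enzyme-only, and 57 and 47 in buffer-only, or 37.6% to 42.5% of its sites. TUBA1A had 3 to 6, TUBA1C up to 6 and TUBB up to 3 per library, TUBB4B had 1 in RBFOX2-INSCRIBE replicate 1, and TUBB2A, TUBB2B, ACTB and ACTG1 had none. All 9 genes overlap with an annotated gene on the other strand (TUBA1B with TUBA1B-AS1), so an overlap alone does not separate the genes with such sites from those without. These sites were left out of all counts above.

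Other genes of the cytoskeleton were read from 4 lists. Of 14 other tubulin genes, 4 could be tested in RBFOX2-INSCRIBE against buffer-only and none passed (limma), with a median log2 difference of 0.88. Of 20 genes of the chaperonin CCT, prefoldin and the tubulin folding cofactors, which fold actin and tubulin, 10 of 13 tested were higher in RBFOX2-INSCRIBE and none lower, with a median of 1.07. Of 16 microtubule regulators, 7 of 10 tested were higher (median 1.31), with none lower. For actin regulators 29 names were listed, of which MKL1 and MRTFA stand for the same gene. Of these, 14 of 21 tested were higher (median 1.12), with none lower. The shares of the last 3 lists (76.9%, 70% and 66.7%) lie near the 61.1% of all genes, and all 4 medians lie below the 1.54 of all genes; after scaling to the same total the 4 medians were between -0.54 and -0.17 and none of these genes passed. In the other comparisons none of the genes of the 4 lists passed.

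Named by the size of their log2 difference from buffer-only, CAP2, which binds actin monomers, listed 34 and 15 edited Cs in RBFOX2-INSCRIBE, 5 and 12 in enzyme-only, and 2 and 2 in buffer-only (3.21, SE 0.54, limma adjusted p = 0.00242). CFL2, a cofilin that severs actin filaments, listed 48 and 55, 17 and 33, and 7 and 5 (3.01, SE 0.35). CAPZA2, which caps actin filaments, listed 142 and 137, 30 and 82, and 25 and 26 (2.43, SE 0.20). These 3 genes had no overlap between any of the groups, but they were selected by their difference from buffer-only. Over all genes tested, both RBFOX2-INSCRIBE libraries lay above both buffer-only libraries in 80.6% and above both enzyme-only libraries in 51.8%. Both enzyme-only libraries lay above both of buffer-only in 44.4%. Among the microtubule regulators, the severing enzyme KATNA1 (2.32), the plus-end protein MAPRE1 (1.42) and the polymerase CKAP5 (1.41) had the largest log2 differences. Among the folding genes these were TBCE (1.84), VBP1 (1.75) and CCT2 (1.55).

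The genes whose profile of log2 edited Cs per C over the 6 libraries was closest to the mean of the 9 genes were RSL1D1, RBM3 and RNF20, at Euclidean distances of 0.438, 0.471 and 0.514. RSL1D1 listed 57 and 39 edited Cs in RBFOX2-INSCRIBE, 44 and 55 in enzyme-only, and 23 and 24 in buffer-only, so that both groups with Apo1-Nb lay above buffer-only and overlapped with each other.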

How the data were processed

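The 6 libraries in 3 groups of 2 were grouped by their titles. The authors processed PacBio Kinnex reads with ccs, skera, lima and refine, aligned them to hg38 with pbmm2, assigned them to isoforms with IsoQuant and called C-to-U edits with their own scripts, removing edits found across all replicates and samples and dbSNP positions. The deposited value is the fraction of reads edited per isoform and position. Read numbers were not used here, and a deeper library could list more Cs at lower fractions.

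Isoforms were matched to GENCODE release 44, which may not be the release used for the deposited files. Per library, 92.0% to 96.9% of matched edits were on the strand of the isoform, and the others were left out. Coding sequences were aligned with MAFFT. Genes were compared with limma 3.58.1 in R 4.3.3 (trend and robust settings) on log2((edited Cs + 0.5) / Cs), without scaling. The fit was tried on simulated counts only in its form scaled to the same total, with a spread between libraries set in advance. The unscaled fit was not tested in this way. Alternatives were other pseudocounts and minimums, scaling to the same total, a joint fit of all groups, a minimum edit fraction, both strands, canonical isoforms alone, a block for the replicate number, and each library left out in turn. Tables were made with Python 3.11.15, numpy 2.4.6, pandas 2.3.3 and matplotlib 3.10.9.

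Named were all 9 genes with their canonical isoform and isoforms averaging 5 or more edited Cs, the C of highest mean fraction among those listed in 2 or more libraries, each UGCAUG, the 3 genes nearest in profile, and up to 3 passing genes per list. The Cs opposite a T of ACTB were chosen after their values were seen. One marker gene and some sequences are not reported here. The genes and lists were chosen with earlier results of these data known.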

Additional observations from a re-analysis of the deposited data

Results flagged for a closer look

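Edits of the 9 genes on the opposite strand entered the comparisons only in the alternative with both strands. By number they were higher in both groups with Apo1-Nb than in buffer-only. There were 81 and 64 such sites in RBFOX2-INSCRIBE (mean 72.5), 84 and 68 in enzyme-only (mean 76) and 60 and 58 in buffer-only. Both groups with Apo1-Nb lay above both buffer-only libraries and overlapped with each other. With 2 libraries per group, the difference was not tested. TUBA1B held most of these sites, and there RBFOX2-INSCRIBE (67 and 56) overlapped with buffer-only (57 and 47). As a share of the sites of TUBA1B, they made up 37.6% and 38.1% in RBFOX2-INSCRIBE, 41.8% and 40.0% in enzyme-only, and 42.5% and 39.8% in buffer-only. The share in RBFOX2-INSCRIBE was thus below that of buffer-only. Over all genes, 6867 and 6716 edits were on the other strand in RBFOX2-INSCRIBE, 4436 and 6271 in enzyme-only and 6400 and 6252 in buffer-only.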

How the results depend on the processing

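The counts of genes that passed with limma depended strongly on the settings, whereas the count among the 9 genes stayed between 0 and 2. In RBFOX2-INSCRIBE against enzyme-only, the 6 genes became 30 with a pseudocount of 1, 35 with canonical isoforms alone, 1 in a fit of all 3 groups or with both strands, and 0 with a pseudocount of 0.1, a mean of at least 1 edited C, scaling to the same total or a fraction of at least 0.02; they ranged from 0 to 1659 when 1 library was left out, and the passing members from 0 to 1. The 3 isoforms became 59 with a pseudocount of 1 and 0 with a pseudocount of 0.1, a mean of at least 1, scaling or a fraction of at least 0.02, and ranged from 0 to 1828 when 1 library was left out, with 0 to 1 isoform of the 9 genes. In RBFOX2-INSCRIBE against buffer-only, the 2940 genes became 15 after scaling and 634 at a fraction of at least 0.02, and ranged from 0 to 2311 when 1 library was left out. Of the 9 genes, 1 passed there with a mean of at least 1 (TUBB2A), 1 after scaling (ACTB, lower), 2 with canonical isoforms alone (ACTB and TUBA1B), 1 without the Cs opposite a T of a near-identical gene (TUBB2B), and 0 to 1 when 1 library was left out. In enzyme-only against buffer-only, the 23 genes became 35 with a pseudocount of 0.1, 8 with a mean of at least 1, 64 in a fit of all 3 groups, and 0 after scaling or at a fraction of at least 0.02, and ranged from 0 to 1 when 1 library was left out.

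Scaling turned the log2 difference in RBFOX2-INSCRIBE against enzyme-only for ACTB (-0.43), TUBA1B (-0.75), TUBB2A (-0.69) and TUBA1C (-0.49). It turned that against buffer-only for ACTB (-1.19), TUBA1B (-1.05), TUBB2B (-0.34), TUBA1A (-0.48) and ACTG1 (-1.33), and that of enzyme-only against buffer-only for TUBA1B (-0.29), TUBB2B (-0.34), TUBA1A (-0.47) and ACTG1 (-0.21). In the first comparison, TUBB2A was at -2.04 at a fraction of at least 0.02 and TUBA1B at -0.0061 with both strands. When 1 library was left out, the sign turned for some genes. In RBFOX2-INSCRIBE against enzyme-only the ranges were -0.068 to 0.85 for ACTB, -0.32 to 1.83 for TUBA1A, -0.077 to 0.21 for TUBA1B, -0.12 to 0.67 for TUBA1C and -0.19 to 0.35 for TUBB2A. Against buffer-only they were -0.054 to 0.36 for ACTG1 and -1.04 to 0.093 for TUBB4B. In enzyme-only against buffer-only they were -0.55 to 0.37 for ACTB, -0.90 to 1.25 for TUBA1A, -0.48 to 1.72 for TUBB and -0.18 to 0.74 for TUBB2B. Apart from scaling, whose construction removes the difference in totals, the cause of these changes was not tested. At a fraction of at least 0.02, none of the 9 genes could be tested against buffer-only.

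RBFOX2-INSCRIBE and buffer-only share replicate numbers, but same-numbered libraries did not deviate together (r = 0.029 over 4804 genes). With the replicate block, 2908 genes passed and none of the 7 tested here. The titles number the enzyme-only libraries 2 and 3, which leaves fewer than 2 shared numbers, whereas another label numbers them 1 and 2. With that label as the replicate block, chosen after seeing the data, 28 genes passed in RBFOX2-INSCRIBE against enzyme-only (r = 0.115 over 5088 genes) and 8 in enzyme-only against buffer-only (r = -0.036 over 4211 genes), with none of the 9 genes.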
